A study of Sus scrofa with 12 samples.

Results

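The 10 genes described here encode the cardiac natriuretic peptides, the protease and receptors that serve them, and proteins of stretched or injured heart muscle cells. They were NPPA, NPPB, NPPC, CORIN, NPR1, NPR2, ANKRD1, XIRP1, XIRP2 and FLNC. They were listed by symbol and matched to the pig gene identifiers of the deposited counts. All 10 had an identifier among the 35682 gene identifiers counted, and 9 were among the 13844 genes with enough reads to be tested. NPPC was the member left out.

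RNA was sequenced from the hearts of 6 Yorkshire pigs, with 1 border zone and 1 remote zone library from the mid level of the left ventricle of each animal. Every animal had undergone balloon occlusion of the left anterior descending coronary artery for 60 min followed by reperfusion. Every animal also received tacrolimus at 0.75 mg/kg/day, mycophenolate mofetil at 500 mg/day and prednisolone at 20 mg/day from day 9. On day 14 each animal received, through a left thoracotomy, either vascular organoids held in place with fibrin glue, or fibrin glue alone as the control. The organoids were built from endothelial progenitor cells (EPC) and smooth muscle cells (SMC) of human origin. Which treatment each animal received was not given in the labels and was not used, so both treatments are mixed within each region. The border zone is the muscle next to the infarct, and the remote zone was taken from the posterior wall of the same hearts. The remote zone is therefore not uninjured heart, and each library is a piece of whole tissue. Animals are named by the numbers 1022, 1322, 1323, 1623, 1922 and 3622.

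Natriuretic peptides are hormones that heart muscle cells release when the wall is stretched. NPPA (atrial natriuretic peptide) is made mainly by the atria in the healthy adult heart, and both NPPA and NPPB (brain natriuretic peptide) are known to rise in the failing or infarcted ventricle. They act through the receptor NPR1, which makes cyclic GMP and leads to vessel relaxation and salt excretion. NPPC (C-type natriuretic peptide) acts through the related receptor NPR2. ANKRD1 (cardiac ankyrin repeat protein) binds titin and responds to strain, XIRP1 and XIRP2 bind actin at the intercalated disc, and FLNC (filamin C) crosslinks actin at the Z disc and at sites of muscle damage.

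NPPA and NPPB are neighbours on pig chromosome 6 (build Sscrofa11.1). NPPA (ENSSSCG00000061442) lies at chr6:71919557-71921345 and NPPB (ENSSSCG00000003431) at chr6:71930374-71931843 in the RefSeq annotation, both on the minus strand, with 9028 bases and 0 protein-coding genes between them. The sequences just upstream of these 2 genes and of ANKRD1 are shown because the 3 genes are the best known stretch-induced transcripts of the list and behaved differently in the libraries. Each is the 250 bases before the RefSeq start, read 5′ to 3′ on the strand of the gene, at chr6:71921346-71921595 for NPPA, chr6:71931844-71932093 for NPPB and chr14:102612858-102613107 for ANKRD1. Capitals mark matches on either strand to the GATA factor motif AGATAA, to the M-CAT motif of TEAD factors with the letters CATTCC, or to the letters TATAAA of a TATA box.
NPPA: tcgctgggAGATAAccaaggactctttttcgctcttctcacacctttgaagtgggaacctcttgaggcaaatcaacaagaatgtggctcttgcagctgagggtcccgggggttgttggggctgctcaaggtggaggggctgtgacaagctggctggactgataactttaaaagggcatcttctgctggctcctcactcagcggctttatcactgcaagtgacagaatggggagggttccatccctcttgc
NPPB: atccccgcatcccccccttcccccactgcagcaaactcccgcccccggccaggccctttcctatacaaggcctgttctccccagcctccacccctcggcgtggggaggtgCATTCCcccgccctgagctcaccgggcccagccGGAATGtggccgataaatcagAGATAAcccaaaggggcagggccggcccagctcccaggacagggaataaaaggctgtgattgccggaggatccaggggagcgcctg
ANKRD1: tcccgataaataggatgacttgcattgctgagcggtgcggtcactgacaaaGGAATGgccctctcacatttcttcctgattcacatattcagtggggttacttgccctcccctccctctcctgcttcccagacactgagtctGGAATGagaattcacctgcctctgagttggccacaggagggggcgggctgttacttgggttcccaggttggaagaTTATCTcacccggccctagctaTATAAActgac

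The upstream windows of the 2 neighbouring peptide genes held different letters. NPPA had 1 match to AGATAA, which began 242 bases before its start, and none to CATTCC or TATAAA. NPPB had 1 match to AGATAA, at 86 bases, and 2 to CATTCC, at 140 and 107 bases. ANKRD1, on another chromosome, had 1 match to AGATAA at 33 bases, 2 to CATTCC at 199 and 108 bases, and TATAAA at 11 bases. None of these matches overlapped another. Over all 10 members, AGATAA was found in 4 windows (NPPA, NPPB, ANKRD1 and XIRP1), CATTCC in 3 (NPPB, ANKRD1 and FLNC), TATAAA in 3 (NPPC, CORIN and ANKRD1) and the CArG box of serum response factor in 0. Among 19548 pig promoters of the same length the shares were 8.08% for AGATAA, 10.3% for CATTCC, 9.77% for TATAAA and 1.31% for the CArG box. A match is a run of letters and not a measured binding site, and its absence says only that those letters are not in this window.

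Libraries held between 15130200 and 31618700 counted reads, to 6 significant digits. Values are given as CPM, the reads of a gene relative to the library total after scaling by the trimmed mean of M values (TMM), and a log2 fold change is border zone over remote zone from edgeR's quasi-likelihood test with its standard error (SE). A gene passed the test when its p, adjusted by Benjamini-Hochberg over all 13844 genes tested, was under 0.05. The summed marker genes of heart muscle and of matrix cells differed between the regions. The summed CPM of 12 cardiomyocyte markers was 13483 to 82544 in border libraries and 68765 to 113559 in remote libraries. The border value was the lower one in 6 of 6 animals, and animal 1022 had the lowest sum. Of these 12 markers 0 passed the test singly by edgeR, 3 had an unadjusted p under 0.05 and 1 was lower by DESeq2. Over all genes tested, 2.07% passed by edgeR, 24.7% had an unadjusted p under 0.05 and 1.83% were lower by DESeq2. The summed CPM of 13 fibroblast and matrix markers was 3990 to 80027 in border libraries, with animal 1022 highest, and 1317 to 3333 in remote libraries. No marker measured in either list was at 0 in all libraries, but 3 of the 15 cardiomyocyte markers listed (MYH7, MB and TTN) and 1 fibroblast marker (THY1) had no identifier and are not in these sums. In whole tissue, fewer cells of a type and less RNA per cell cannot be told apart. The part of this difference in the results on the 10 genes was not tested beyond the alternative scalings given below.

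None of the 9 members tested passed the threshold between border and remote zone by edgeR. The background was 2.07% of all genes tested. At an unadjusted p under 0.05 there were 2 members, NPPA and NPPB, beside 24.7% of all genes. With the animal as a block 0 of 9 passed (background 0.296%), and by the DESeq2 Wald test 0 of the members passed (background 10.2%). The median log2 fold change of the 9 members was 0.35 with 8 positive values, against a median of 0.04 with 7385 positive values over the 13844 genes. The ranges of the border and remote libraries overlapped for all 10 members, whereas 2.69% of the genes tested had ranges that did not overlap.

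**Figure D1:**
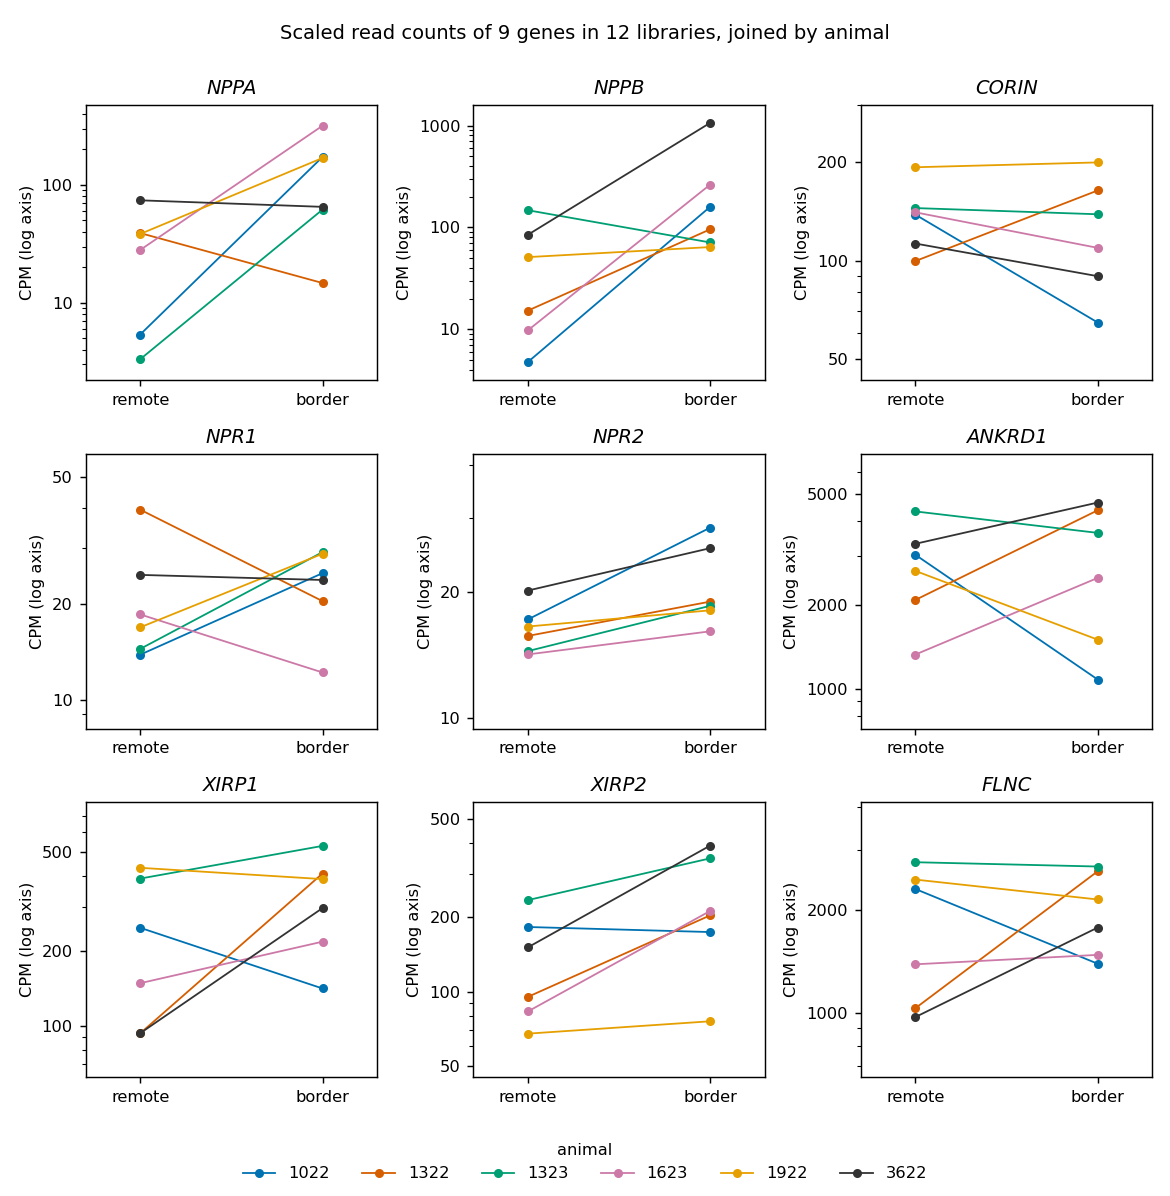
Scaled read counts (CPM, log axis, with a separate range in each panel) of the 9 members tested in the remote and border zone, each line and colour 1 animal. NPPA and NPPB spread over more than a decade within each region and their lines cross, whereas the 6 NPR2 lines all slope upwards within a narrow range.

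The 2 cardiac peptides had the largest differences of the list and the widest spread. NPPA was at 172.2 CPM in the border zone of animal 1022, 14.7 in 1322, 61.6 in 1323, 316.7 in 1623, 168.8 in 1922 and 65.0 in 3622. In the remote zone the same animals gave 5.38, 39.0, 3.33, 28.0, 38.3 and 73.9 CPM. The border zone was higher in 4 of 6 animals and lower in 1322 and 3622, and the remote library of 3622 exceeded 3 of the 6 border libraries. The log2 fold change was 2.09 (SE 0.75, n = 6 per region, edgeR adjusted p = 0.123), a 4.26-fold difference of fitted means that did not pass the test.

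NPPB was at 159.4 CPM in the border zone of animal 1022, 95.7 in 1322, 71.1 in 1323, 263.4 in 1623, 64.1 in 1922 and 1064 in 3622. In the remote zone the values were 4.75, 15.2, 147.5, 9.73, 51.0 and 84.6 CPM. The border zone was higher in 5 of 6 animals, all but 1323. The log2 fold change was 2.46 (SE 0.90, n = 6 per region, edgeR adjusted p = 0.128), which also missed the threshold. The border library of 3622 carried 61.9% of the NPPB signal summed over the 6 border libraries. Without that library the log2 fold change was 1.33 (edgeR adjusted p = 0.304). Without both libraries of 3622 it was 1.51, and 2.41 with the animal as a block, against 2.72 with the block over all 6 animals. Without 1323, the animal with the lower border value, it rose to 3.24 (edgeR adjusted p = 0.168), and to 3.33 with the block. The border library of 3622 also listed reads for 28024 genes, against 16932 to 20148 in the other 11.

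The within-region spread of NPPA and NPPB was among the widest of all genes. The standard deviation of log2 CPM over the 6 animals was 1.57 for NPPA in the border zone and 1.77 in the remote zone, and 1.53 and 1.93 for NPPB. The median over all genes tested was 0.47 in the border zone and 0.38 in the remote zone. Only 1.96% of genes had a larger SD than NPPA in the border zone and 0.491% in the remote zone, and for NPPB these shares were 2.17% and 0.318%. From the lowest to the highest remote library NPPA spanned 22.2-fold and NPPB 31.1-fold.

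NPPA and NPPB ranked the animals differently, although 1623 was high at the border in both. The border library with the most NPPB, from 3622, exceeded only 2 other border libraries in NPPA, and the remote library with the most NPPB, from 1323, had the least NPPA of all 12 libraries. Within animals, the border minus remote difference in log2 CPM was 4.98 for NPPA and 5.04 for NPPB in 1022, and 3.49 and 4.75 in 1623, so both were much higher in the border zone of these animals. It was 4.18 for NPPA against -1.05 for NPPB in 1323, and -1.40 against 2.65 in 1322. Pearson's r between NPPA and NPPB in log2 CPM was 0.42 over the 12 libraries, 0.12 over the 6 border libraries, 0.05 over the 6 remote libraries and -0.0061 over the 6 within-animal differences. These correlations describe libraries that come in pairs from 1 animal and share the TMM scaling.

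**Figure D2:**
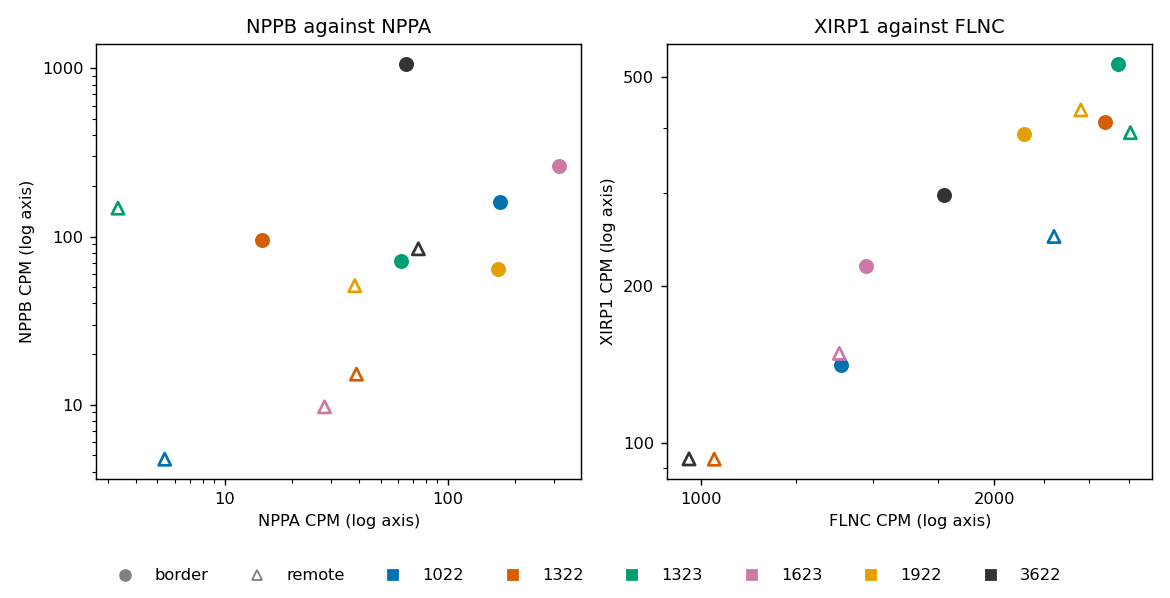
CPM of NPPB against NPPA (left) and of XIRP1 against FLNC (right) in the 12 libraries on log axes, filled circles border zone, open triangles remote zone, 1 colour per animal. The points for the peptides scatter (r = 0.42), and those for XIRP1 and FLNC lie along 1 line with border and remote libraries mixed (r = 0.95).

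The C-type peptide gene NPPC (ENSSSCG00000026852) was close to undetected. It had 3, 2, 3, 2, 4 and 2 reads in the border zone of 1022, 1322, 1323, 1623, 1922 and 3622, and 1, 10, 2, 4, 0 and 4 reads in the remote zone. The sums were 16 and 21 reads, and a difference between regions was not detectable at this depth. The remote library of 1922 had 0 reads, which allows up to 0.156 CPM (3 counts, counting error only).

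CORIN (ENSSSCG00000008813, chr8:37530812-37811226) is the membrane protease that cuts the NPPA precursor into the active hormone. Its level was 64.7 to 200.1 CPM in the border zone (median 124.2) and 99.8 to 193.4 CPM in the remote zone (median 139.5). It was higher at the border in 2 of 6 animals, and the lowest library was the border zone of 1022, which also had the lowest cardiomyocyte marker sum. With edgeR the log2 fold change was -0.11 (SE 0.26, edgeR adjusted p = 0.822). The sign turned to 0.02 without that library, so no direction can be given.

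The receptor for NPPA and NPPB, NPR1 (ENSSSCG00000006572, chr4:95957220-95974253), was at 12.2 to 29.1 CPM in the border zone (median 24.4) and 13.9 to 39.5 CPM in the remote zone (median 17.7). It was higher at the border in 3 animals (1022, 1323 and 1922) and lower in the other 3. The difference in log2 was 0.12 (SE 0.28, edgeR adjusted p = 0.822), and it was -0.10 without animal 1323.

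NPR2 (ENSSSCG00000005322, chr1:236508994-236529172), the receptor for NPPC, was the only member with a higher border than remote value in 6 of 6 animals. It was at 28.4 CPM in the border zone of 1022, 18.9 in 1322, 18.5 in 1323, 16.1 in 1623, 18.1 in 1922 and 25.4 in 3622. The remote values were 17.2, 15.7, 14.4, 14.2, 16.5 and 20.1 CPM. The differences were small, from 0.13 to 0.72 in log2 CPM, and the ranges of the regions overlapped. On the log2 scale the fitted difference was 0.35 (SE 0.17, edgeR adjusted p = 0.205), and 0.33 (adjusted p = 0.117) with the animal as a block. The same held for 11.7% of the genes tested, so 1 of 9 members is a share near that background. With library totals 2 members (NPR2 and XIRP2) were higher in every animal, beside 24.6% of all genes, and with scaling to cardiomyocyte markers 4 (NPR2, XIRP1, XIRP2 and FLNC), beside 53.3%. Without 1022 the count was 2 (NPR2 and XIRP2, beside 12.8%), and without 1323 it was 2 (NPPB and NPR2, beside 12.9%). The SD of NPR2 was exceeded by 72.3% of genes in the border zone and 88.0% in the remote zone.

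**Figure D3:**
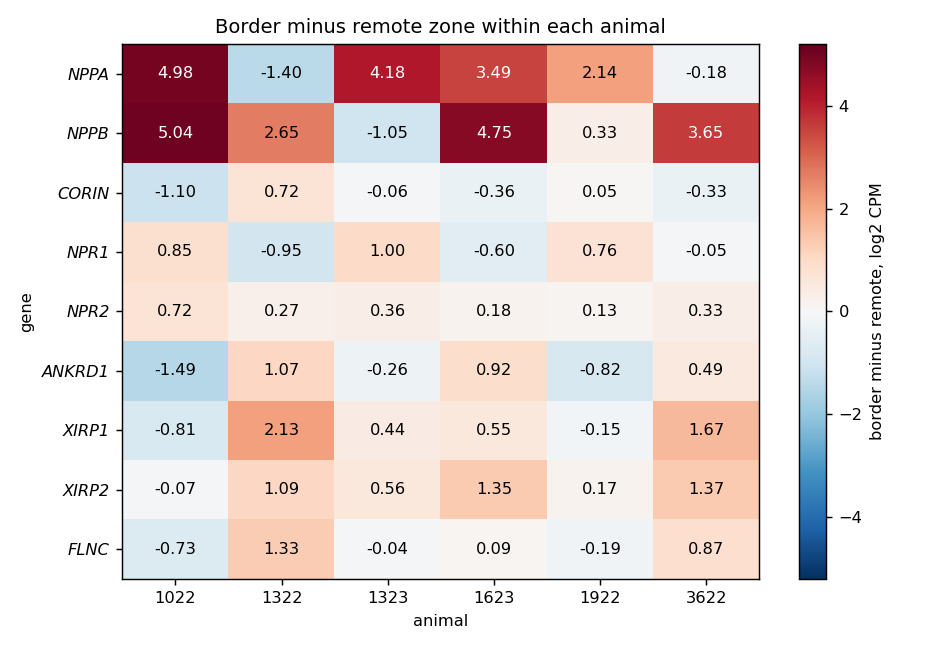
Border minus remote difference in log2 CPM (colour scale and printed value) for the 9 members tested (rows) in each of the 6 animals (columns), red where the border zone was higher and blue where it was lower. NPR2 is the only row that is red throughout, from 0.13 to 0.72, and NPPA and NPPB hold the darkest cells, up to 5.04.

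ANKRD1 (ENSSSCG00000010461, chr14:102603777-102612857) was the most abundant member and did not separate the regions. It was at 1078 CPM in the border zone of 1022, 4372 in 1322, 3626 in 1323, 2499 in 1623, 1499 in 1922 and 4660 in 3622. The remote values were 3024, 2083, 4330, 1326, 2647 and 3313 CPM. The border zone was higher in 3 animals (1322, 1623 and 3622) and lower in 3, and the log2 fold change was 0.08 (SE 0.38, edgeR adjusted p = 0.916). With the animal as a block it was -0.0049. The border library of 3622 and the remote library of 1323 were the highest of their region in both ANKRD1 and NPPB, and r between these genes was 0.34 over the 12 libraries, 0.33 in the border zone and 0.62 in the remote zone.

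XIRP1 (ENSSSCG00000034015, chr13:23867476-23876850) was at 141.4 to 529.2 CPM in the border zone (median 343.4) and 93.3 to 432.1 CPM in the remote zone (median 198.3). It was higher at the border in 4 of 6 animals, with the widest gaps in 1322 (409.9 against 93.3 CPM) and 3622 (297.6 against 93.5 CPM). The remote libraries of 1322 and 3622, which make these gaps and were also the lowest 2 in FLNC, had 21.4% and 33.5% of their reads on mitochondrial genes, against 13.6% to 14.7% in the other remote libraries. With mitochondrial genes left out of the counts the log2 fold change of XIRP1 was 0.51. In 1022 it was lower, at 141.4 against 248.0 CPM. This gave a log2 fold change of 0.50 (SE 0.43, edgeR adjusted p = 0.491).

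XIRP2 (ENSSSCG00000015917, chr15:73665876-73741046) had the least variable difference of the stretch group (SD of the within-animal log2 differences 0.62). Its border values were 174.2 CPM in 1022, 203.5 in 1322, 346.2 in 1323, 212.0 in 1623, 75.8 in 1922 and 389.9 in 3622. The remote values were 182.6, 95.2, 234.6, 83.1, 67.6 and 151.0 CPM. The border zone was higher in 5 of 6 animals, and only 1022 was slightly lower. The fitted log2 fold change was 0.78 (SE 0.39, edgeR adjusted p = 0.226). The members higher in 5 or 6 animals were NPPB, NPR2 and XIRP2, 3 of 9, beside 28.8% of all genes tested. XIRP2 was past the threshold when the animal was a block and 1022 was left out, with a log2 fold change of 0.91 and an edgeR adjusted p of 0.0327, a combination chosen after seeing the data in which 6.19% of all genes passed.

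FLNC (ENSSSCG00000016578, chr18:19759734-19787616) was at 1391 to 2680 CPM in the border zone (median 1961) and 971.2 to 2759 CPM in the remote zone (median 1845). The border zone was higher in 3 animals, and the log2 fold change was 0.15 (SE 0.31, edgeR adjusted p = 0.808). The lowest library was the remote zone of 3622, at 971.2 CPM, and the highest was the remote zone of 1323.

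XIRP1 and FLNC followed each other closely across libraries. Pearson's r of log2 CPM was 0.95 over the 12 libraries, 0.95 over the 6 border libraries, 0.98 over the 6 remote libraries and 0.99 over the 6 within-animal differences. XIRP2, which is related to XIRP1 in sequence, did not follow FLNC as closely in levels, with r = 0.25 over the 12 libraries and 0.77 over the within-animal differences. XIRP2 lay nearer to ANKRD1, with r = 0.63 over the 12 libraries and 0.94 over the within-animal differences. CORIN levels went with those of XIRP1, with r = 0.82 in the border zone and 0.88 in the remote zone. The within-animal differences of NPPA and FLNC ran opposite to each other (r = -0.93), which rests on 6 animals. This was the most negative such value among all pairs of the members tested, and r over the 12 libraries was -0.46. In 1022, 1323 and 1922 NPPA was higher at the border and FLNC lower, in 1322 and 3622 the reverse held, and in 1623 both were higher. The remote libraries of 1322 and 3622 had 21.4% and 33.5% of their reads on mitochondrial genes, against 13.6% to 14.7% in the other remote libraries. The part of this in the opposite differences was not tested.

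The levels of different genes can be compared only per length. In median CPM per kilobase of RefSeq exon in the border zone, ANKRD1 stood at 1623, FLNC at 211.3, NPPB at 190.4, NPPA at 131.8, XIRP1 at 54.8, XIRP2 at 17.0, CORIN at 15.2, NPR1 at 4.55, NPR2 at 4.41 and NPPC at 0.091. In the remote zone the medians were 1503 for ANKRD1, 198.7 for FLNC, 49.4 for NPPB, 37.4 for NPPA, 31.7 for XIRP1, 17.1 for CORIN, 10.1 for XIRP2, 3.80 for NPR2, 3.31 for NPR1 and 0.10 for NPPC. Genes next to each other in this order had overlapping ranges over the libraries in both regions, with 3 exceptions. These were the steps from ANKRD1 to FLNC (571.3 to 2469 against 149.8 to 288.7 CPM per kilobase in the border zone), from CORIN to NPR1 in the border zone and from XIRP2 to NPR2 in the remote zone, and from the receptors to NPPC. XIRP2 still overlapped NPR2 in the border zone and NPR1 in the remote zone. NPPB and NPPA ranged so widely (95.7 to 1588 and 16.6 to 357 CPM per kilobase in the border zone) that the highest NPPB library lay within the range of ANKRD1, and in the remote zone the lowest NPPA library, at 3.75, lay within that of NPR1 and NPR2. Within each of the 12 libraries, NPPA and NPPB stood above both NPR1 and NPR2 in CPM per kilobase. The ratio was narrowest for NPPA over NPR2, at 1.10, in the remote zone of 1323, and widest for NPPB over NPR1, at 357.9, in the border zone of 3622.

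**Figure D4:**
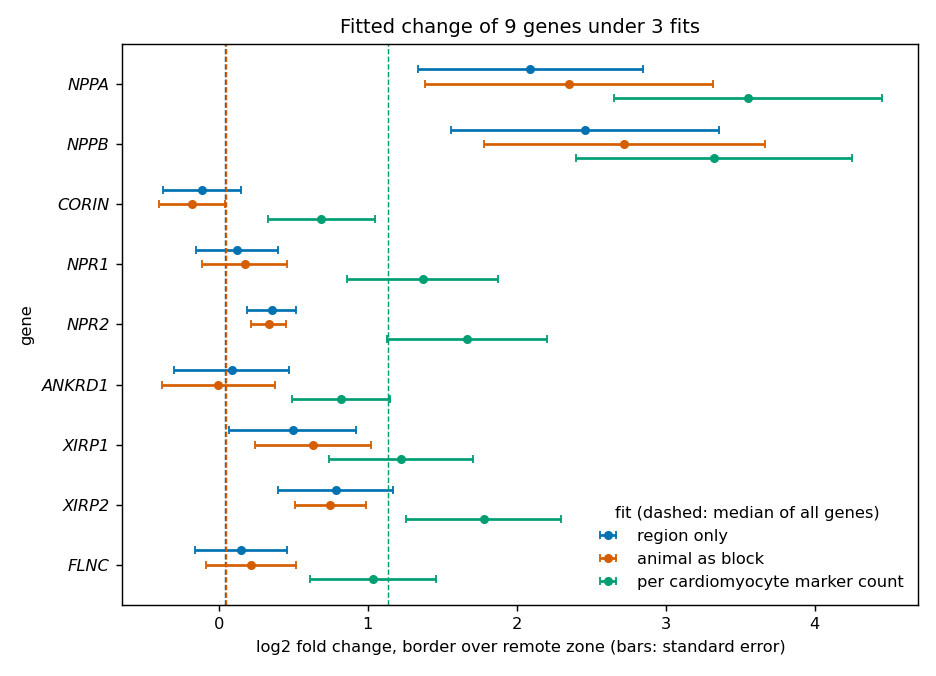
Log2 fold change of border over remote zone for the 9 members tested, with bars of 1 SE, under the TMM scaling with and without the animal as a block and under scaling to cardiomyocyte markers. NPPA and NPPB lie farthest to the right in each fit, and the cardiomyocyte scaling moves every gene upwards, as it does the median of all genes (1.13).

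Because the cardiomyocyte marker sum was lower in the border zone, the comparison was repeated with each library scaled to 12 cardiomyocyte marker genes. All genes tested had a median of 1.13 in log2 under this scaling, against 0.04 with TMM, and it called 4017 genes, 29% of those tested. NPPA (3.55, edgeR adjusted p = 0.0281), NPPB (3.32, adjusted p = 0.0295), NPR2 (1.67, adjusted p = 0.0388) and XIRP2 (1.78, adjusted p = 0.0318) passed the threshold. Relative to the median of all genes the values were 2.42 for NPPA, 2.19 for NPPB, 0.54 for NPR2, 0.65 for XIRP2, 0.24 for NPR1, 0.09 for XIRP1, -0.10 for FLNC, -0.31 for ANKRD1 and -0.45 for CORIN. The calls depended on single animals. Leaving out 1323 or 3622 left 0 of the 9 members and 0 genes past the threshold, and leaving out 1022 left 1 member (NPR2) beside 7.4% of all genes. Leaving out 1623 left 1 (NPPA) beside 11.9%, leaving out 1922 left 3 (NPPA, NPPB and XIRP2) beside 9.94%, and leaving out 1322 gave 5 (NPPA, NPPB, NPR1, NPR2 and XIRP2) beside 28.9%. Without 1022 the values were also smaller, at 2.50 for NPPA, 2.80 for NPPB, 0.79 for NPR2 and 1.49 for XIRP2, with a median of 0.54 over all genes. Without 1323 the values were 3.50 for NPPA, 4.37 for NPPB, 1.77 for NPR2 and 1.99 for XIRP2, with a median of 1.23. Without 3622 they were 4.04 for NPPA, 2.77 for NPPB, 1.74 for NPR2 and 1.69 for XIRP2, with a median of 1.14. Scaling to plain library totals, under which the median of all genes was 0.32, put NPPA and NPR2 past the threshold, beside 11.2% of all genes. With cardiomyocyte scaling and the animal as a block, 0 of 9 members passed, beside 0.101% of all genes. The values were then 3.03 for NPPA, 3.43 for NPPB, 1.13 for NPR2 and 1.59 for XIRP2, with a median of 0.86 over all genes.

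Other genes of the natriuretic peptide and cyclic GMP pathway showed no difference that passed the test. Of 20 such genes listed, 18 were tested, 0 passed in either direction by edgeR, 5 had an unadjusted p under 0.05 (24.7% of all genes), and 2 were higher by DESeq2 (8.42% of all genes). The shares of the list are near those of all genes. The median log2 fold change was 0.04, the same as over all genes. The member of this list with the highest level that did not pass was PDE3A, a phosphodiesterase that breaks down cyclic AMP and is inhibited by cyclic GMP, at 92.9 to 367.8 CPM in border libraries and 228.9 to 515.2 CPM in remote libraries (log2 fold change -0.54, SE 0.33, edgeR adjusted p = 0.324). Its border value was the higher one in 1 animal. OSTN and PRKG2 had too few reads to be tested.

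Of 26 tested partners of filamin C and the XIRP proteins, 0 passed by edgeR, 3 had an unadjusted p under 0.05 and 2 were higher by DESeq2 (24.7% and 8.42% of all genes), with a median log2 fold change of -0.05. The most abundant was ACTN2, the sarcomeric alpha-actinin, at a log2 fold change of -0.26 (SE 0.30, edgeR adjusted p = 0.627). Of 16 tested genes of titin-linked stretch sensing, 0 passed by edgeR, 4 had an unadjusted p under 0.05 and 1 was higher by DESeq2, beside the same shares of all genes, with a median of -0.21. The most abundant of these, DES (desmin, the intermediate filament of muscle), was at 5121 to 16061 CPM in border libraries and 7690 to 12080 CPM in remote ones (log2 fold change 0.23, SE 0.29, edgeR adjusted p = 0.663).

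Of 28 tested genes of the fetal and hypertrophy programme, 2 rose in the border zone and 0 fell by edgeR, with a median of 0.07. At an unadjusted p under 0.05 there were 13 of 28, beside 24.7% of all genes. Over all genes 2.06% rose and 0.0144% fell. By DESeq2 6 were higher and 2 lower, beside 8.42% and 1.83% of all genes. SLN (sarcolipin, an inhibitor of the sarcoplasmic calcium pump that is abundant in atrial muscle) was at 1.62 to 4.10 CPM in the border zone (median 2.19) and 0.145 to 1.27 CPM in the remote zone (median 0.408). Its border libraries all lay above its remote libraries, and 2.69% of the genes tested had ranges that did not overlap. The lower of its remote levels are near the floor, since 3 counts amount to 0.0988 to 0.201 CPM in the remote libraries. The log2 fold change was 2.36 (SE 0.46, edgeR adjusted p = 0.0276), and SLN also passed with the animal as a block (adjusted p = 0.041). MYOF (myoferlin, a membrane repair protein that non-muscle cells also make) was at 6.77 to 119.7 CPM in border libraries and 3.05 to 7.02 CPM in remote libraries, higher at the border in 6 of 6 animals. Its log2 fold change was 2.82 (SE 0.63, edgeR adjusted p = 0.0382), and it did not pass with the animal as a block (2.05, adjusted p = 0.0798). ACTA1, skeletal alpha-actin, was the most abundant gene of the list that did not pass, at a log2 fold change of -0.23 (SE 0.33, edgeR adjusted p = 0.695).

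The genes whose levels ran most like those of 4 members were taken by Pearson's r of log2 CPM over the 12 libraries, as a description. For NPPA they were MYL4, the atrial essential myosin light chain (r = 0.94), SLC9A2, a sodium-hydrogen exchanger (0.93), and LVRN, an aminopeptidase with medians under 1 CPM in both regions (0.90). MYL4 had a median of 28.4 CPM in the border zone and 9.98 CPM in the remote zone (log2 fold change 1.75, SE 0.69, edgeR adjusted p = 0.146). For NPPB they were ATP2B2, a calcium pump of the cell membrane (0.89), CNN1, the smooth muscle calponin (0.87), and SH2D3A (0.87), of which ATP2B2 and SH2D3A had medians under 1 CPM in both regions. The nearest genes to the 2 peptides had no gene in common, but lists of 3 out of 13844 genes are too short for this to tell the peptides apart.

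For ANKRD1 the nearest genes were TM7SF2, a sterol reductase (0.89), and CRYAB (0.89) and HSPB6 (0.89), both small heat shock proteins of muscle. CRYAB was at a median of 1603 CPM in the border zone and 1226 CPM in the remote zone. For XIRP1 they were MAP4, a microtubule-associated protein (0.95), FLNC (0.95) and FILIP1, a filamin-interacting protein (0.94). None of these genes passed the threshold between border and remote zone by edgeR, and the same libraries give both the likeness and the test.

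Markers of other cells were set beside these results. Over all genes tested 2.06% rose by edgeR, 24.7% had an unadjusted p under 0.05 and 10.2% were called by DESeq2. Of 7 tested markers of atrial muscle cells, 1 (SLN) rose in the border zone and 5 had an unadjusted p under 0.05, and their summed CPM was 593.4 to 1181 in border libraries and 457.4 to 862.2 in remote ones, higher at the border in 5 of 6 animals. Most of this sum was PAM, a peptide-amidating enzyme that other cells also make, with a median of 688.5 CPM in border libraries and 607.8 CPM in remote ones (log2 fold change 0.31, SE 0.27, edgeR adjusted p = 0.498). Of 13 tested fibroblast and matrix markers 11 rose (median 2.93 in log2). All 13 had an unadjusted p under 0.05, and 12 were called by DESeq2. With the animal as a block 1 of the 13 passed, at a median of 2.27 in log2. Of 4 endocardial markers 1 (SMOC1) rose and of 10 macrophage markers 1 (LYZ) rose, with 3 and 10 at an unadjusted p under 0.05, and 3 and 5 called by DESeq2, and neither passed with the animal as a block (edgeR adjusted p = 0.0821 and 0.0814). In the other lists, 0 of 12 endothelial, 0 of 12 smooth muscle and pericyte and 0 of 5 cell division markers passed by edgeR, with 0, 9 and 4 of them at an unadjusted p under 0.05 and 0, 4 and 2 called by DESeq2. Whether these cells had a part in the levels of NPPA, NPPB or XIRP2 was not tested.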

How the data were processed

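Border and remote zone tissue of 6 pigs was sequenced as 12 poly(A), nondirectional paired-end libraries. Per-gene read counts, not normalized, were deposited by the authors after alignment with STAR to Sscrofa11.1 and counting with featureCounts on Ensembl models. The options for reads that match several genes were not given in the sources used here, and without strand, overlapping genes cannot be told apart. Region and animal came from the sample titles, although the extraction text of the labels names border zone tissue for all samples. Of 35682 identifiers, 15623 had a symbol. The 10 members, the gene lists and the markers were chosen with earlier results of these data known.

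Counts were analysed with edgeR 4.0.16 in R 4.3.3 (quasi-likelihood test, robust, region as the only term, filterByExpr, TMM, Benjamini-Hochberg). SE was derived from the test's F statistic and the log2 fold change. Log2 CPM used a prior count of 2. Genome windows came from Sscrofa11.1 with RefSeq starts, whereas counting used Ensembl models. DESeq2 1.42.0 and the other alternatives are listed with their effect in the closing section. The steps were tested on simulated data. The simulated counts held no animal effect, so they do not show how the test behaves on paired libraries.

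The border and remote library with the same number are from the same animal and are therefore paired. Across genes, which are not independent, the deviations of the pairs from their region's mean had an average r of 0.35, from -0.03 in 1022 to 0.57 in 1323, and 4 of 6 pairs were over 0.1.

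All 10 members, each pathway gene past the threshold (at most 6 per list), the most abundant gene of each list that did not pass, and the 3 genes nearest by correlation to NPPA, NPPB, ANKRD1 and XIRP1 were named. A gene with fewer than 10 reads in all was to be given by its counts only. No member fell under that limit.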

Additional observations from a re-analysis of the deposited data

How the results depend on the processing

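With 6 animals, differences such as 4.26-fold for NPPA did not pass the test, and depth limits NPPC only. Each choice was changed alone unless 2 are named, except that DESeq2 brings its own test, scaling and filter. Of 261 values of single members under the alternatives, 219 kept their direction and their side of the threshold, 17 passed the threshold only there, and 25 changed sign, none of them past the threshold. The sign changes include those of CORIN under library totals and cardiomyocyte scaling, which raise the median of all genes, and CORIN lay below that median in each of them.

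The genes past the threshold numbered 287. They numbered 211 with DESeq2 size factors and 254 with no mitochondrial genes, and 41 with the animal as a replicate block, 1719 by DESeq2, 1551 (11.2%) with library totals, 4017 with cardiomyocyte scaling, 139 with no filter, 149 with at least 10 counts in every library, 156 without the border library of 3622, and 0 to 519 with 1 animal left out (0 without 1623 or 3622, 3 without 1323, 15 without 1922, 163 without 1022 and 519 without 1322). Alternatives added after seeing the data gave 14 with the block and cardiomyocyte scaling, 0 to 856 with the block and 1 animal left out (856 without 1022, 51 without 1322, 10 without 1323), and 0 to 4036 with cardiomyocyte scaling and 1 animal left out (1023 without 1022, 4036 without 1322, 1630 without 1623, 1393 without 1922 and 0 without 1323 or 3622). The 0 members past the threshold became 2 with library totals (NPPA 2.55, edgeR adjusted p = 0.0416, and NPR2 0.68, adjusted p = 0.0447, where the median of all genes was 0.32), 4 with cardiomyocyte scaling, 0 to 5 with cardiomyocyte scaling and 1 animal left out, and 1 with the block without 1022. Members higher in the border zone of every animal numbered 1, against 2 with library totals, 4 with cardiomyocyte scaling and 1 to 2 with 1 animal left out, beside 11.7%, 24.6% and 53.3% of all genes for the first 3. Under cardiomyocyte scaling the natriuretic, filamin C, titin-linked and fetal lists had 6 of 18, 7 of 26, 4 of 16 and 13 of 28 genes past the threshold, beside 29% of all genes, and under the block the fetal list had 1. The block changed no other call of a member or pathway list. The cause of these changes was not tested.

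Relative to the median of all genes CORIN was -0.21 with library totals, -0.45 with cardiomyocyte scaling (-0.58 to -0.067 with 1 animal left out) and -0.21 with the block and cardiomyocyte scaling. Without that reference its values were positive, with library totals (0.11), cardiomyocyte scaling (0.69, and 0.48 to 0.82 with 1 animal left out, namely 0.48, 0.64, 0.71, 0.82, 0.75 and 0.70 without 1022, 1322, 1323, 1623, 1922 and 3622), the block with cardiomyocyte scaling (0.66), and without 1022 (0.023, and 0.023 without its border library alone), and ranged from -0.28 to 0.023 with 1 animal left out. NPR1 ranged from -0.10 to 0.41 with 1 animal left out and was -0.047 with the block without 1323. ANKRD1 was -0.0049 with the block, -0.09 without the border library of 3622, from -0.15 to 0.27 with 1 animal left out, and -0.24, -0.20 and -0.12 with the block without 1322, 1623 and 3622. FLNC ranged from -0.060 to 0.31 with 1 animal left out and was -0.015 with the block without 1322. NPPA ranged from 1.61 to 2.66 and NPPB from 1.51 to 3.24 with 1 animal left out.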
